A study of Mus musculus with 12 samples.

Results

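The peaks described here lie on chrUn_random, the artificial sequence of older mouse assemblies into which contigs without a known chromosome were joined. All peaks with that sequence name were taken from 12 deposited ChIP-seq peak lists, and peaks that overlapped or touched were merged into regions. This gave 1013 of 99986 peaks and 241 of 97746 regions. The regions covered 85866 bp, which is 1.74% of the stretch between the first and the last of them. In ChIP-seq, DNA crosslinked to protein is enriched with an antibody and sequenced, and a peak is a place where the fragments pile up.

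The cells were naive CD4 T cells of spleen and lymph nodes from C57/Bl6j mice aged 7 weeks, either wild-type or NLRP3 knockout (NLRP3-/-). Cells of both genotypes were activated on plates coated against CD3 and CD28 for a few hours, under conditions that start Th2 differentiation (10 ng/ml IL-4, with interferon gamma blocked by an antibody). Chromatin of 300000 cells was used with antibodies to STAT6, NLRP3, IRF4 and BATF, with a nonspecific immunoglobulin (Ig), or as input without antibody. Each of the 12 combinations is 1 library, so genotypes and antibodies could not be compared against replicate error. How many mice were used, and whether cells were pooled, is not given in the sources used here. Peak lists hold no expression values, so the cell type and the loss of Nlrp3 were not checked against transcripts. The NLRP3 antibody gave 110 chrUn_random peaks in wild-type cells and 87 in cells labelled as knockout. The nonspecific Ig gave 92 and 71, so these counts cannot show whether the protein was lost.

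STAT6 carries the signal of the IL-4 receptor to DNA. BATF, of the AP-1 family, and IRF4, of the interferon regulatory factor family, often occupy composite sites together in T cells. NLRP3 is the sensor protein of an inflammasome. Unplaced contigs of mammalian assemblies are rich in satellite and other repeated DNA, for which an assembly often holds fewer copies than the genome. Such sequence is known from many ChIP-seq experiments as a place where reads pile up with any antibody, and it is often masked before peaks are interpreted. That is background and not a result of these lists. The DNA sequence, genes and repeats under these peaks were not analysed here.

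In absolute number, chrUn_random peaks of the lists as deposited were much alike in all libraries made with an antibody, the nonspecific Ig included, and few in input. Wild-type cells had 108 such peaks with STAT6, 110 with NLRP3, 96 with IRF4, 81 with BATF, 92 with Ig and 5 in input. Knockout cells had 99 with STAT6, 87 with NLRP3, 124 with IRF4, 108 with BATF, 71 with Ig and 32 in input. The 8 ChIP lists thus lay between 81 and 124 peaks and the 2 Ig lists at 71 and 92. Both input lists lay below all of these. The likeness depended on low-scored peaks. With a minimum score of 75 the antibody libraries ran from 30 peaks in knockout BATF to 89 in knockout IRF4, and with 100 from 22 to 62 in the same lists.

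The share of a list that lay on chrUn_random has the length of that list as its denominator, and the lists differ widely in length. In wild-type cells chrUn_random held 18.0% (95% exact Clopper-Pearson interval 15.0 to 21.3) of the NLRP3 list, 11.65% (9.54 to 14.0) of the IRF4 list, 10.5% (8.42 to 12.9) of the BATF list and 3.48% (2.86 to 4.19) of the STAT6 list. The wild-type Ig share was 13.4% (10.9 to 16.1) and the input share 1.10% (0.359 to 2.55). The knockout lists ran from 27.4% (22.9 to 32.3) in STAT6 through 17.2% (13.7 to 21.2) in Ig, 13.2% (10.7 to 16.0) in NLRP3 and 12.3% (10.3 to 14.5) in IRF4 to 0.177% (0.145 to 0.214) in BATF and 0.106% (0.0726 to 0.150) in input. The high STAT6 share in knockout cells comes with the shortest list, of 361 peaks, and the low share in wild-type cells with a list of 3102 peaks, while the numbers on chrUn_random were 99 and 108. The intervals cover counting error of peaks only, and the read depth behind the lists is unknown.

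**Figure D1:**
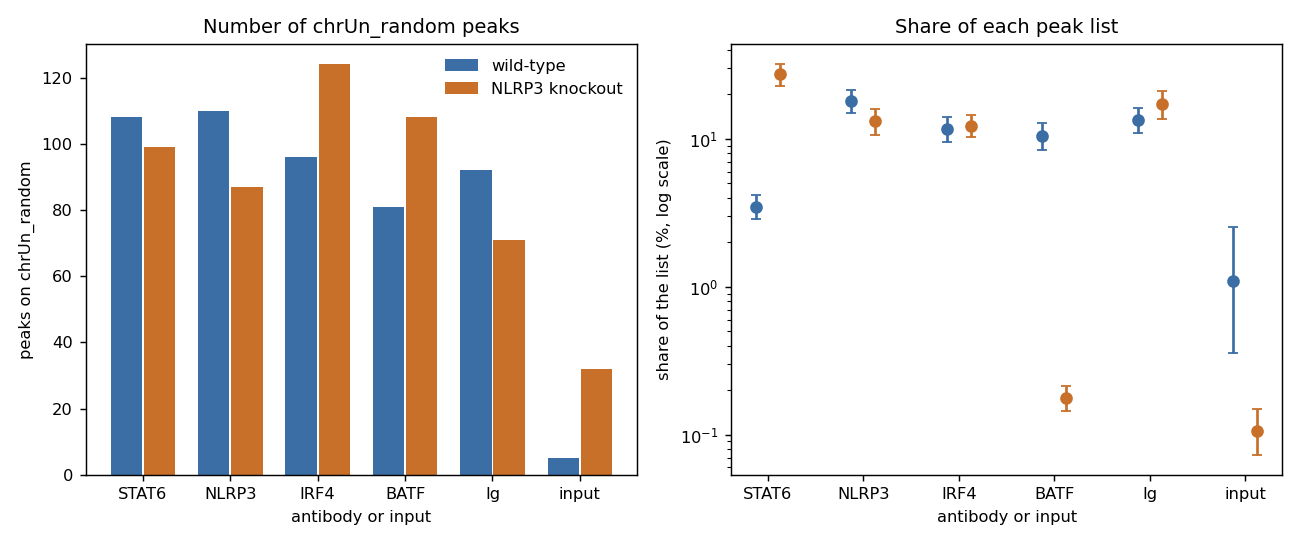
Peaks on chrUn_random in each of the 12 lists, as a number (left, bars) and as a share of the list (right, points with exact 95% intervals, log axis), by antibody or input and genotype. The numbers lie between 71 and 124 in every ChIP and Ig list and at 5 and 32 in input, while the shares run from 0.106% to 27.4%.

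By length of sequence rather than by number, chrUn_random took a larger part of most lists. Its peaks made up 26.3% of all bases covered by wild-type IRF4 peaks, 29.6% for NLRP3, 19.1% for BATF, 11.8% for STAT6 and 24.3% for Ig. The knockout values were 24.8% for IRF4, 24.0% for NLRP3, 26.3% for STAT6, 26.6% for Ig and 0.453% for BATF, whose list held 60926 mostly narrow peaks. Input peaks on chrUn_random covered 725 bp in wild-type and 1886 bp in knockout cells, or 1.38% and 0.109% of their lists.

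The peaks on chrUn_random scored higher and were wider than the other peaks of the same list. The score is the authors' own, read as 10 times the negative log10 of a peak's p, and a score of at least 100 is called high here. High-scored peaks on chrUn_random numbered 58 in wild-type STAT6 (53.7% of its chrUn_random peaks, where 6.32% of the whole list were high), 46 in NLRP3 (41.8%, list 24.9%), 55 in IRF4 (57.3%, list 23.7%) and 40 in BATF (49.4%, list 22.0%). Wild-type Ig had 41 (44.6%, list 14.7%) and input 2 of 5 (list 5.95%). The nonspecific Ig thus stood at the level of the factor antibodies.

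In knockout cells the numbers of high-scored peaks were 42 for STAT6 (42.4%, list 35.7%), 38 for NLRP3 (43.7%, list 14.1%), 62 for IRF4 (50%, list 20.1%) and 22 for BATF (20.4%, list 0.0886%). Knockout Ig had 31 (43.7%, list 20.6%). Knockout input had 0 of 32 (interval 0 to 10.9%, list 0.0298%). Each list was set against its own remainder, so that the test compares no scores between libraries. The mean share of high scores was 40.6% on chrUn_random and 12.8% elsewhere, a difference of 27.7 percentage points ± 13.4 (SD, n = 12 lists) that was positive in 11 of 12 lists (exact two-sided sign-flip permutation test over lists, p = 0.000977, Benjamini-Hochberg adjusted over 3 tests 0.00146; the smallest p possible was 0.000488). Knockout input was the exception. The lists share cells and regions and are not independent, so the p covers only the spread between these libraries.

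The highest-scored peaks of every ChIP and Ig list included peaks on chrUn_random. Of the 25 highest-scored peaks of a list, 5 to 9 lay on chrUn_random in the 8 ChIP lists, and 9 and 7 in the Ig lists of wild-type and knockout cells. Input had 2 and 0. The best chrUn_random peak ranked 6th or 7th of its list in every ChIP and Ig list, 8th in wild-type input and 93rd in knockout input.

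Median peak width on chrUn_random was 393.5 bp in wild-type STAT6 (107 bp elsewhere in the list), 318 bp in NLRP3 (154 bp), 380 bp in IRF4 (153.5 bp), 199 bp in BATF (97 bp) and 263.5 bp in Ig (109 bp). In knockout cells it was 304 bp in STAT6 (152 bp), 225 bp in NLRP3 (104 bp), 296.5 bp in IRF4 (132 bp), 74 bp in BATF (58 bp) and 200 bp in Ig (109.5 bp). Input gave 168 bp (101 bp) in wild-type and 56 bp (56 bp) in knockout cells, the latter with no difference. The mean of the within-list differences was 129 bp ± 81.7 (SD, n = 12 lists), positive in 11 of 12 lists (exact sign-flip permutation test, p = 0.000977, adjusted 0.00146). The widest chrUn_random peak of each ChIP or Ig list measured 1776 to 1948 bp.

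**Figure D2:**
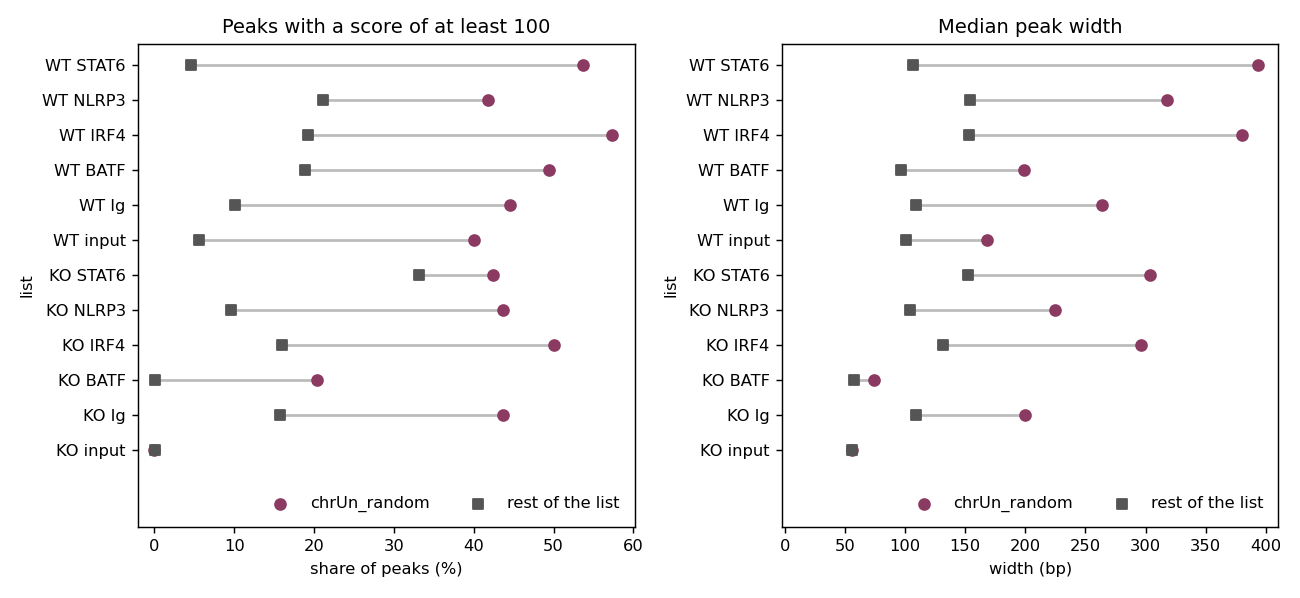
For each of the 12 lists, the share of high-scored peaks (left, %, score 100 or more) and the median peak width (right, bp) on chrUn_random (circles) and in the rest of the same list (squares); KO stands for NLRP3 knockout. The circles lie to the right of the squares in 11 of 12 lists in both panels, and the markers of knockout input coincide.

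The long knockout lists carried another kind of chrUn_random peak. In knockout BATF 43 of 108 peaks (39.8%) had a score of 56.67, which is the most frequent score of that whole list, and in knockout input 21 of 32 (65.6%) had 57.35, again the most frequent score of its list. In the other 10 lists at most 1 chrUn_random peak had the list's most frequent score. Regions found in knockout BATF and no other list numbered 54, and those found only in knockout input numbered 24. Together they are most of the 115 regions found in a single list. No other list had more than 7 regions of its own, and wild-type IRF4 had none.

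Most of the remaining regions recurred from library to library. Of the 241 regions, 52 were present in at least 8 of the 12 lists, or 21.6% (16.6 to 27.3). Over all regions of the series 0.142% passed this mark, and outside chrUn_random 87 of 97505 did, or 0.0892% (0.0715 to 0.110). Most regions elsewhere come from knockout BATF and knockout input, and leaving these lists out was chosen after seeing the data. Without both lists 51 of 163 regions on chrUn_random (31.3%, 24.3 to 39.0) and 72 of 6902 elsewhere (1.04%, 0.817 to 1.31) were in at least 8 of the remaining 10. Without knockout BATF alone the shares were 27.3% on chrUn_random and 0.206% elsewhere, and without knockout input alone 24.0% and 0.124%. Among regions in at least 2 of the 12 lists, those in at least 8 were 52 of 126 on chrUn_random (41.3%, 32.6 to 50.4) and 87 of 489 elsewhere (17.8%, 14.5 to 21.5). In each of these comparisons the chrUn_random share was the higher one. Sequence of the other unplaced kind, which is assigned to a chromosome without a position, had 1 region in at least 8 lists among 995. Of these 995 regions 989 were in 1 list and only 6 in at least 2, too few for a comparison. Regions in at least 2 lists made up 52.3% (45.8 to 58.7) on chrUn_random and 0.502% (0.458 to 0.548) elsewhere.

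The number of lists holding a region had a second peak at 10. There were 15 regions in 5 lists, 13 in 6, 6 in 7, 8 in 8, 12 in 9, 28 in 10, 2 in 11 and 2 in all 12. A total of 31 regions were in all 8 ChIP lists and both Ig lists. The 52 regions of at least 8 lists held 579 of the 1013 chrUn_random peaks (57.2%) and 45.4% of the covered bases. Each of the 12 lists can be read against these 52. Wild-type STAT6, wild-type NLRP3 and knockout IRF4 held all 52, wild-type IRF4 and knockout NLRP3 held 51, wild-type Ig and knockout STAT6 held 50, knockout Ig 49, wild-type BATF 47 and knockout BATF 37. Input held 4 in wild-type and 3 in knockout cells.

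**Figure D3:**
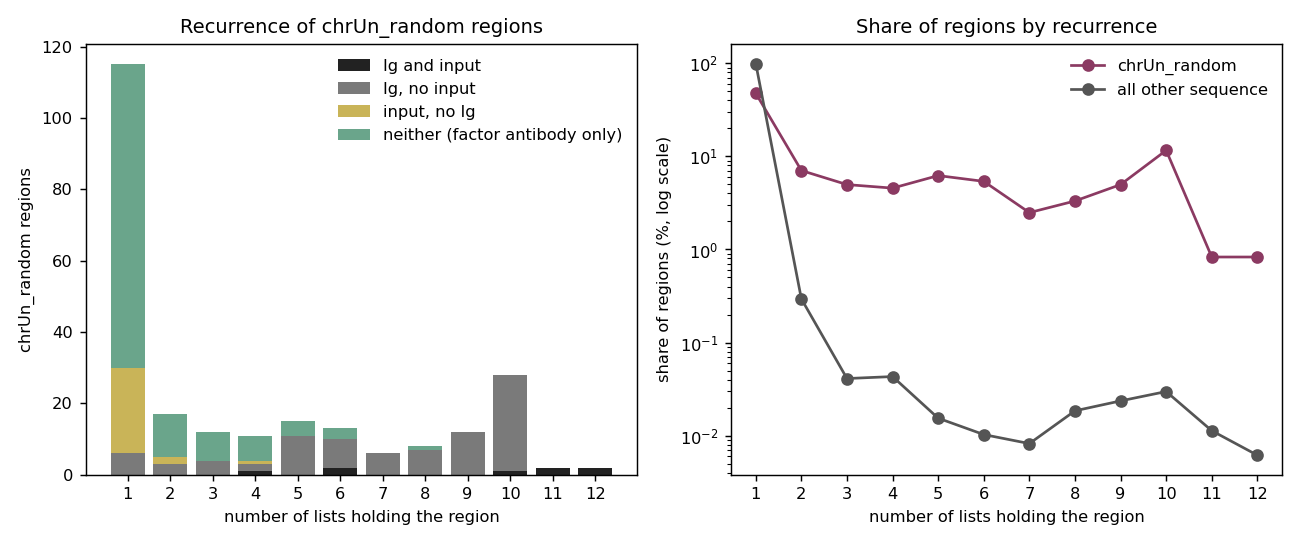
Left, number of chrUn_random regions by the number of lists (1 to 12) that hold them, split by the presence of Ig and input peaks; right, the share of regions by number of lists on chrUn_random and on all other sequence (%, log axis). Of the chrUn_random regions 115 lie in 1 list and 28 in 10, and 51 of the 52 regions in at least 8 lists have an Ig peak.

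The region at chrUn_random positions 5249151 to 5249891 was present in all 12 lists and held the highest chrUn_random score of 5 of them, namely NLRP3 and BATF in both genotypes and knockout Ig. In wild-type cells it scored 1774 with STAT6, 1766 with NLRP3, 1720.2 with IRF4, 1403 with BATF, 1475 with Ig and 125 in input. In knockout cells the scores were 1582 with STAT6, 1539.8 with NLRP3, 1549.9 with IRF4, 1028 with BATF, 1362 with Ig and 60.9 in input. Scores with Ig lay within the range of the factor antibodies in both genotypes, and the input scores lay far below all of them. A score is not a measure of occupancy between libraries, so these values are a description of each list.

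The region at positions 5495358 to 5497286, 1929 bp long, was in 11 lists and had the highest chrUn_random score of the series. In wild-type cells it scored 2195 with STAT6, 1670 with NLRP3, 1949.9 with IRF4, 1289 with BATF, 1533 with Ig and 50.6 in input. In knockout cells it scored 1619.8 with STAT6, 1246 with NLRP3, 2026 with IRF4, 656 with BATF and 1340.3 with Ig, and input had no peak. Here too the Ig library stood among the factor libraries.

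The region at positions 5813183 to 5814053 was the other one in all 12 lists and the strongest chrUn_random place of both input lists. Its wild-type scores were 693 with STAT6, 775 with NLRP3, 693 with IRF4, 846 with BATF, 674 with Ig and 232 in input. Its knockout scores were 711 with STAT6, 1063 with NLRP3, 669.5 with IRF4, 803 with BATF, 734 with Ig and 79.7 in input. The NLRP3 antibody thus had a peak here in cells labelled as lacking that protein, as did every other library.

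The next highest regions had Ig peaks in both genotypes and no input peak. At positions 3632284 to 3632534 the scores were 666 with STAT6, 733 with NLRP3, 743 with IRF4, 249 with BATF and 440.1 with Ig in wild-type cells, and 581, 303, 569.6, 192 and 404 for these libraries of knockout cells. At positions 5872513 to 5873572 the wild-type scores were 743 with STAT6, 379.8 with NLRP3, 631 with IRF4, 354 with BATF and 404 with Ig. Of the 5 widest regions, that at 4062572 to 4064541 spanned 1970 bp but scored only 51.4 to 67.2 in its 5 ChIP lists. The region at 5495358 to 5497286 was the next widest. The others were 5547702 to 5549627 (1926 bp, highest score 113), 4523786 to 4525347 (1562 bp, 114) and 4520376 to 4521858 (1483 bp, 245). Width and score thus did not always go together.

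The 31 regions of all 8 ChIP and both Ig lists were ordered similarly by score in these 10 lists. The input lists were not ranked. Over these regions the Spearman correlation of a ChIP list with the Ig list of its genotype ran from 0.656 to 0.925, with a median of 0.856. With the Ig list of the other genotype it ran from 0.641 to 0.906, with a median of 0.801. That between the wild-type and knockout lists of the same antibody ran from 0.729 to 0.852, with a median of 0.838. That between lists of different antibodies ran from 0.683 to 0.942, with a median of 0.796. These are descriptions over regions that share libraries, cells and sequence, and they carry no p. The 4 ranges overlap, Ig included. Scores in these regions had a median of 329 in wild-type STAT6, 249 in NLRP3, 285 in IRF4, 183 in BATF and 214 in Ig, and of 250.4, 209, 333, 126 and 161 for these libraries of knockout cells.

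Single regions departed from the common order. The region at positions 3927489 to 3928492 ranked 4th of the 31 in knockout IRF4, with a score of 624, and 6th in wild-type STAT6, with 595. It ranked 23rd in wild-type IRF4 at 189, 24th in knockout STAT6 at 182 and 26th in knockout Ig at 114. Wild-type Ig gave it rank 14, with a score of 231. It had the widest spread of ranks of the 31, so it is the extreme of a set, and no replicate shows whether the spread would recur.

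**Figure D4:**
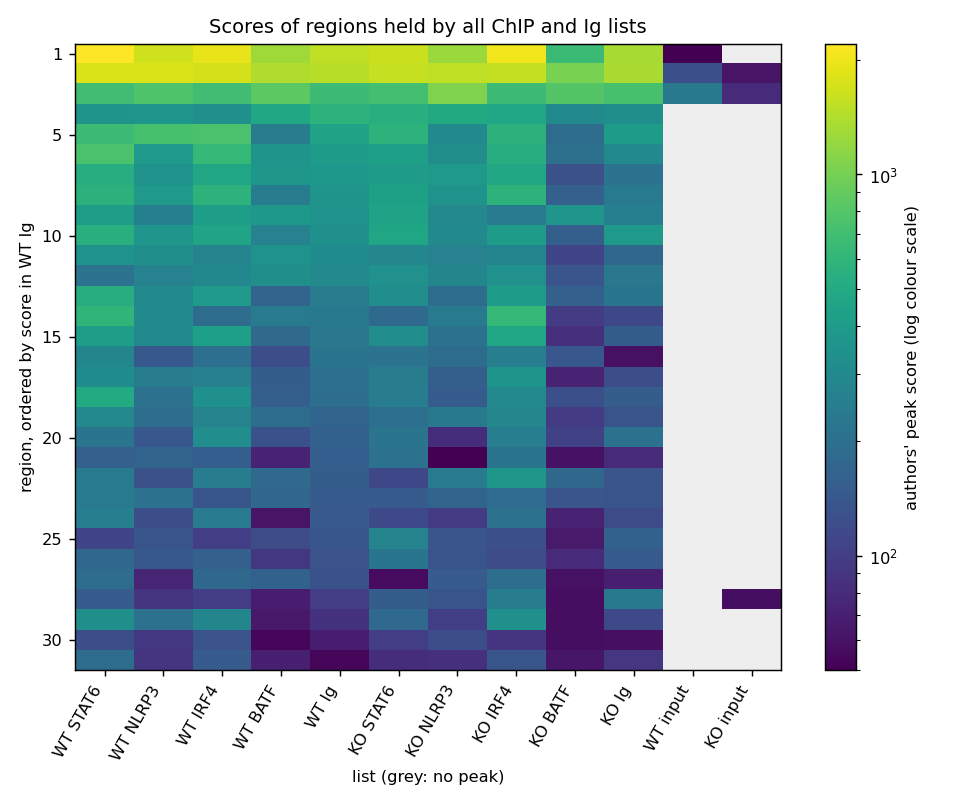
Scores of the 31 regions held by all 8 ChIP and both Ig lists (rows, ordered by score in wild-type Ig) in the 12 lists (columns, KO for NLRP3 knockout), on a log colour scale; grey marks no peak. The first 3 rows are high in all 10 ChIP and Ig columns, and nearly all of both input columns is grey.

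Ig and input, the 2 kinds of background library, differed on chrUn_random. A total of 94 regions had an Ig peak and 35 an input peak, and only 8 had both. The Ig lists shared 53 regions, and 88 of the 94 Ig regions also had a ChIP peak. Over all 241 regions, those without a ChIP peak were 6 with Ig only and 24 in knockout input alone. Most regions thus had a ChIP peak, so the 88 are not read as a trait of Ig regions. Of the 27 regions with an input but no Ig peak, 24 were in knockout input alone. No region was in both input lists and in no Ig list. The exceptions with a ChIP peak, chosen after their values were seen, were at 4527639 to 4528071 in 4 lists, 5485191 to 5485404 in 2 lists and 5583059 to 5583231 in 2 lists, with no score above 83.7.

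Of the wild-type Ig peaks on chrUn_random 4 of 92 overlapped a wild-type input peak, or 4.35% (1.20 to 10.8), and in knockout cells 3 of 71 did, or 4.23% (0.880 to 11.9). With peaks within 1000 bp counted as shared the knockout number was 8 of 71, or 11.3%. Elsewhere the corresponding shares, by overlap, were 3.35% (2.06 to 5.13) and 4.39% (2.48 to 7.13), so the intervals overlap and the small part of Ig peaks present in input was not shown to differ for chrUn_random. In the other direction 4 of 5 wild-type input peaks and 3 of 32 knockout input peaks lay in Ig. Whether library depth or the caller's control sets the low input numbers was not tested, since the lists give neither.

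Most peaks of a factor antibody were found again in the background libraries of their genotype, in each list but knockout BATF. For knockout IRF4 the interval also takes in a minority. In wild-type cells 73 of 108 STAT6 peaks (67.6%, interval 57.9 to 76.3), 71 of 110 with NLRP3 (64.5%, 54.9 to 73.4), 70 of 96 with IRF4 (72.9%, 62.9 to 81.5) and 59 of 81 with BATF (72.8%, 61.8 to 82.1) on chrUn_random overlapped an Ig or input peak. In knockout cells 65 of 99 STAT6 (65.7%, 55.4 to 74.9), 56 of 87 NLRP3 (64.4%, 53.4 to 74.4), 66 of 124 IRF4 (53.2%, 44.1 to 62.2) and 40 of 108 BATF peaks (37.0%, 27.9 to 46.9) did. Nearly all of this was Ig. Input accounted for 3 to 7 peaks per ChIP list.

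On all other sequence the same shares were lower in each of the 8 ChIP lists. They were 21.4% for wild-type NLRP3, 15.5% for IRF4, 11.9% for BATF and 3.37% for STAT6. For the same factors in knockout cells they were 13.6%, 10.97%, 0.215% and 35.1%. The mean was 62.3% on chrUn_random and 14.0% elsewhere, a difference of 48.3 percentage points ± 12.03 (SD, n = 8 lists). It was positive in 8 of 8 lists (exact two-sided sign-flip permutation test, p = 0.00781, the smallest that 8 lists can give, adjusted 0.00781). With a minimum score of 75 in all lists the difference was 33.3 percentage points (exact permutation p = 0.00781), and with a minimum of 100 it was 18.6 (exact permutation p = 0.0234). ChIP lists of a genotype share their Ig and input lists, so the 8 differences are not independent. How many of these overlaps come from position alone, on a stretch where peaks lie close together, was not tested. From the first region in at least 8 lists to the last region, regions covered 3.52% of the sequence.

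A factor antibody alone, with no Ig or input peak in either genotype, marked 120 of the 241 regions, or 49.8% (43.3 to 56.3), where 67.8% of all regions of the series did. The share was below that of the whole series, so the count is not read as a result about chrUn_random. Of the 120, 54 were in knockout BATF alone, and without the lists of knockout BATF and knockout input 68 regions had a factor antibody only. Among regions in at least 2 lists, 35 of 126 on chrUn_random lacked Ig and input (27.8%, interval 20.2 to 36.5), against 239 of 489 elsewhere (48.9%, 44.4 to 53.4). An Ig or input peak lay within 1000 bp of 35 of the 120. Of the 35 factor-only regions in at least 2 lists, 18 had none within that distance. Over all 241 regions, 72 of 240 gaps between neighbours were under 1000 bp, so such closeness is not particular to factor-only regions. With peaks up to 1000 bp apart merged, the number of factor-only regions fell to 74.

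Most of the 120 regions, 85, were in a single list. The highest score reached 100 in 11 of the 120, and 10 of these were among the 35 in at least 2 lists. Over all chrUn_random regions it reached 100 in 1 of 115 in a single list, 29 of 74 in 2 to 7 lists and 51 of 52 in 8 to 12 lists. Of the 120, a single factor marked 86, 14 had 2 factors, 15 had 3 and 5 had all 4. By list they numbered 23 in wild-type STAT6, 29 in NLRP3, 17 in IRF4 and 19 in BATF, and 18, 15, 25 and 61 in knockout cells. The same factor marked 12 of them in both genotypes for IRF4, 8 for STAT6, 5 for NLRP3 and 3 for BATF. Regions with 1 factor and no other, in both genotypes, came to 1. It lay at 3914558 to 3914768, was named after its values were seen, and had NLRP3 scores of 64.3 in wild-type and 50.7 in knockout cells.

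A single region carried every factor antibody in both genotypes and no background peak. At positions 3922933 to 3923141 the wild-type scores were 127 with STAT6, 107 with NLRP3, 170 with IRF4 and 102 with BATF. The knockout scores were 50.5 with STAT6, 53.7 with NLRP3, 208 with IRF4 and 57.3 with BATF. A wild-type Ig peak with a score of 333 ended 110 bp before this region, so the place is not far from background.

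Other factor-only regions lay further from background. At 5324523 to 5324712 the scores were 139 with STAT6, 59.3 with NLRP3, 78.8 with BATF and 71.8 with IRF4 in the wild type. Knockout cells had 193 with IRF4 and 57.4 with STAT6. The nearest Ig or input peak was 2718 bp away. At 3566059 to 3566297 STAT6 scored 84.3, IRF4 72.2 and BATF 79.2 in wild-type cells. Knockout scores there were NLRP3 142, IRF4 122 and STAT6 95.4 in knockout cells. The nearest background peak was 1238 bp away. The region at 4759956 to 4760331 was in 6 lists without STAT6 at scores of 51.1 to 69.9, and that at 3910381 to 3911794 was in 5 lists at 57.2 to 117, with background peaks at 679 and 730 bp. In each of these 4 regions the NLRP3 antibody gave a peak in 1 genotype at least, and in 3 of them in knockout cells.

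Between genotypes, chrUn_random peaks were found again far more often than other peaks, with the factor antibodies and with Ig. The comparison was not matched for score, width or how densely a stretch is covered. In these wild-type lists the chrUn_random peaks scored higher and were wider than the rest. Of the wild-type peaks, 74 of 108 for STAT6 (68.5%, interval 58.9 to 77.1) overlapped a knockout STAT6 peak, where 5.96% of all wild-type STAT6 peaks had one. For the other preparations the knockout list is again that of the same antibody. The number was 64 of 110 for NLRP3 (58.2%, 48.4 to 67.5; whole list 23.9%), 85 of 96 for IRF4 (88.5%, 80.4 to 94.1; 25.5%) and 40 of 81 for BATF (49.4%, 38.1 to 60.7; 19.4%). For Ig it was 58 of 92 (63.0%, 52.3 to 72.9; 20.0%). For input it was 2 of 5 (interval 5.27 to 85.3%; 4.85%), too few to place.

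Outside chrUn_random IRF4 had 17.2% (14.5 to 20.1), NLRP3 16.4% (13.2 to 19.9), BATF 15.9% (13.3 to 18.9), Ig 13.4% (10.8 to 16.4) and STAT6 3.71% (3.06 to 4.45) of peaks found again. These 5 intervals lie below those of chrUn_random, and for input they overlap. The Ig share on chrUn_random overlaps the intervals of STAT6, NLRP3 and BATF and lies below that of IRF4. Of the knockout peaks, 82.8% for STAT6, 80.3% for Ig, 77.0% for NLRP3, 75% for IRF4, 38.9% for BATF and 6.25% for input were in the wild-type list. Of the 87 chrUn_random peaks of the NLRP3 antibody in knockout cells 67 were thus also peaks of that antibody in wild-type cells.

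**Figure D5:**
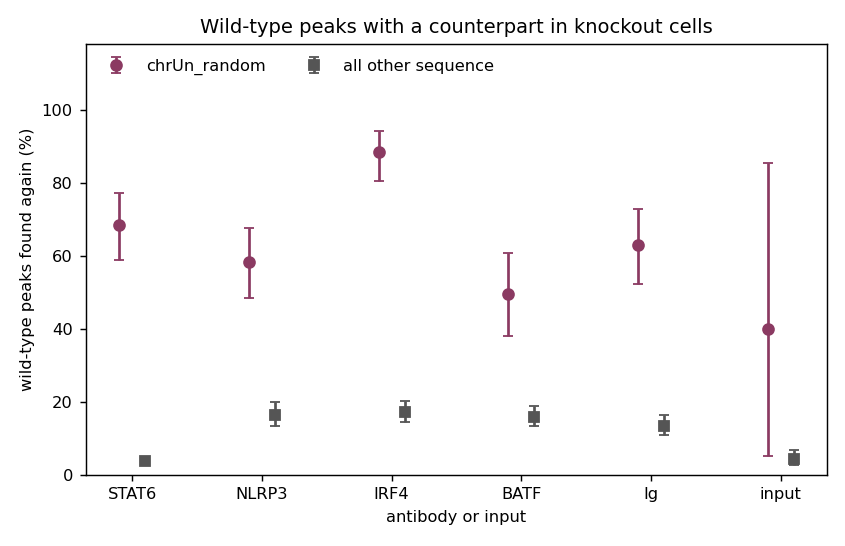
Share of wild-type peaks that overlap a knockout peak of the same antibody or input by at least 1 bp (%), on chrUn_random (circles) and on all other sequence (squares), with exact 95% intervals. On chrUn_random the 4 factors and Ig lie between 49.4% and 88.5%, above the squares, and the input interval spans 5.27% to 85.3%.

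The knockout list that held most of a wild-type list's peaks was that of the same antibody for IRF4 only. Among the 5 knockout ChIP and Ig lists, knockout IRF4 held the largest share of the chrUn_random peaks of each of the 5 wild-type lists, at 89.1% for Ig, 88.5% for IRF4, 87.7% for BATF, 85.2% for STAT6 and 80% for NLRP3. Knockout IRF4 also had the most chrUn_random peaks of the knockout lists. The list of the same antibody ranked 2 of 5 for STAT6, 3 for NLRP3, 4 for Ig and 5 for BATF. Over pairs of ChIP and Ig lists, the share found in the other genotype had a median of 71.8% for the 10 pairs with the same antibody and of 66.4% for the 40 pairs with another one. Pairs within a genotype had a median of 70.2%. These pairs share lists, so the medians are descriptions.

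Recurrence on chrUn_random went with the score. Peaks elsewhere were not split in this way, so whether the same holds for them was not tested. The split was not matched for width. Merged regions had a median width of 58 bp in 1 list, 403.5 bp in 2 to 7 lists and 717.5 bp in 8 to 12 lists. High-scored wild-type peaks had a knockout counterpart in 53 of 58 cases for STAT6 (91.4%, interval 81.0 to 97.1), 41 of 46 for NLRP3 (89.1%, 76.4 to 96.4), 54 of 55 for IRF4 (98.2%, 90.3 to 99.95), 30 of 40 for BATF (75%, 58.8 to 87.3) and 36 of 41 for Ig (87.8%, 73.8 to 95.9). Lower-scored ones had one in 31 of 41 cases for IRF4, 21 of 50 for STAT6, 22 of 51 for Ig, 23 of 64 for NLRP3 and 10 of 41 for BATF. The upper end of the lower-scored interval lies under the lower end of the high-scored one for each of these libraries, at 87.6% for IRF4, 57.8% for Ig, 56.8% for STAT6, 48.9% for NLRP3 and 40.3% for BATF.

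Counted as regions, 112 of 241 were present in both genotypes, or 46.5%. Elsewhere 347 of 97505 were, or 0.356%, where most regions come from knockout BATF and knockout input. On chrUn_random 29 were in wild-type cells alone and 100 in knockout cells alone. Without the lists of knockout BATF and knockout input the chrUn_random counts were 109 in both, 32 in wild-type alone and 22 in knockout alone. The surplus of knockout regions therefore lay in those lists. Of the regions in a single list, 1 had a score of at least 100, namely 103 with STAT6 in knockout cells at 4249206 to 4249407.

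Along chrUn_random the recurrent regions lay in the last part of the sequence and in clusters. The first region in at least 2 lists began at 3549308 and was also the first in at least 8 lists, and the last of the latter ended at 5890657. Before position 3 Mb, a boundary chosen after the positions were seen, there were 40 regions, each in 1 list, with no score above 67.0. Of these 36 came from knockout BATF or knockout input alone. From 3 Mb on there were 201 regions, of which 75 were in 1 list.

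Neighbouring regions were a median of 2847 bp apart, and 72 of 240 gaps were under 1000 bp. With regions up to 10 kb apart taken as a run, 15 runs of at least 5 regions held 157 of the 241 regions and 50 of the 52 in at least 8 lists. The longest run by number, at 4737851 to 4774522, had 22 regions, 5 of them in at least 8 lists. A run of 17 regions at 3549308 to 3581333 had 7 in at least 8 lists. Neighbouring regions of a run may belong to the same repeat or contig, so they are not independent places. Positions on chrUn_random depend on the order in which the contigs were joined and say nothing about a place on a chromosome.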

How the data were processed

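Per the file headers the peak caller was MACS, run in Galaxy, and per the submitters' processing notes Bowtie2 aligned the reads. Which MACS version, cut-off and control library were used is not given in the sources used here. Each deposited list gives a peak's start, end and score. No deposited score was below 50.04, and scores were taken to be MACS 1 values, 10 times the negative log10 of p. It is not normalized between libraries, and the depth is unknown. The notes name the build mm8, but positions on chromosome 7 reach 152397321, past its known end in mm8 and within that of mm9. Positions are printed as deposited, counted from 1.

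Groups came from the sample titles, with 1 library each. An overlap is at least 1 bp. Shares have exact Clopper-Pearson 95% intervals, which cover counting error only. The 3 tests over lists are exact two-sided sign-flip permutation tests of each list against its own remainder. Python 3.11.15, numpy 2.4.6, pandas 2.3.3 and scipy 1.17.1 were used, and overlaps and merging were checked against bedtools 2.31.1 and tested on simulated data. The regions named are those in all 12 lists, the 5 highest-scored, the 5 widest, the 5 factor-only regions in the most lists, the highest of each list, and up to 3 each with both Ig but no input, or both input but no Ig, peaks. Members, rule and tests were chosen with earlier results of these data known. Alternatives were minimum scores of 75 and 100, a distance of 1000 bp, an overlap of 50% of the shorter peak, and leaving out lists.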

Additional observations from a re-analysis of the deposited data

How the results depend on the processing

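The 3 differences between chrUn_random and the rest of a list kept their direction, with an unadjusted exact permutation p under 0.05, in every alternative run, though their size moved. The difference in peaks found in Ig or input was 33.3 percentage points at a minimum score of 75, 18.6 (exact permutation p = 0.0234) at 100, 61.5 with a distance of 1000 bp and 47.7 with an overlap of 50%. Leaving out each library in turn gave a difference of 25.8 to 30.3 percentage points for high scores (p at most 0.00195), of 114 to 140.4 bp for width (p at most 0.00195) and of 46.0 to 50.8 percentage points for peaks found in Ig or input (p of 0.0156). Leaving out the 2 longest or both input lists, and a score of 75 as the high mark, were chosen after seeing the data. Counts depended on the minimum score. With a minimum of 75 the peaks numbered 75 in wild-type STAT6, 66 in NLRP3, 68 in IRF4, 48 in BATF, 52 in Ig and 2 in input. In knockout cells they numbered 59 in STAT6, 57 in NLRP3, 89 in IRF4, 30 in BATF, 40 in Ig and 1 in input. With a minimum of 100 the wild-type numbers were 58 for STAT6, 46 for NLRP3, 55 for IRF4, 40 for BATF, 41 for Ig and 2 for input, and the knockout numbers 42, 38, 62, 22, 31 and 0. The shares of the lists changed as well. At a minimum of 75 they were 9.86% for STAT6, 27.6% for NLRP3, 23.9% for IRF4, 14.5% for BATF, 23.9% for Ig and 1.68% for input in wild-type cells. In knockout cells they were 30.6% for STAT6, 25.4% for NLRP3, 22.9% for IRF4, 5.48% for BATF, 26.7% for Ig and 1.02% for input. At 100, in the order STAT6, NLRP3, IRF4, BATF, Ig and input, they were 29.6%, 30.3%, 28.2%, 23.5%, 40.6% and 7.41% for the wild-type lists. For the knockout lists they were 32.6%, 40.9%, 30.5%, 40.7%, 36.5% and 0%. Under minimum scores of 75 and 100 the regions numbered 117 and 82, those in at least 8 lists 30 and 24, those in all 12 lists 1 and 0, and those with a factor antibody only 65 and 41. Merging up to 1000 bp left 74 factor-only regions. Without the 2 longest lists there were 68, and 4 regions were in all of the remaining 10 lists. With a minimum of 100, 0 of 31 knockout Ig peaks (0%) were in input and 0 of 2 wild-type input peaks (0%) were found again. With peaks within 1000 bp counted as shared, 82.4% of wild-type STAT6, 72.7% of NLRP3 and 75% of Ig peaks were found again, and 11.3% of knockout Ig peaks lay in input. No paired analysis was possible because the labels carry no replicate numbers to use as a block, and lists matched by preparation are not replicates of a genotype. The tests against a list's own remainder are paired within the list. The unknown depth limits every count of peaks absent from a list.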
